A study of Homo sapiens with 12 samples.

Results

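Simple epithelial keratins are the intermediate filament proteins of single-layered epithelia such as the lining of pancreatic ducts. The 5 genes described here are KRT18 and KRT19, which encode acidic type I keratins, and KRT7, KRT8 and KRT80, which encode basic type II keratins. They were taken by symbol, 5 of the 22650 symbols listed in any library and 5 of 38 keratin symbols. They were chosen by their FPKM in both knockout contrasts, since KRT19 was known to be lower in both, and the question was whether its partner keratins were lower as well. The differences of these 5 genes between groups are therefore given as a description, with no test.

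A keratin filament is built from heterodimers of 1 type I and 1 type II chain, and a chain left without a partner is unstable, so the proteins of both types are usually present in similar amounts. KRT8 and KRT18 are the widespread pair of simple epithelia, while KRT7 and KRT19 are added in ductal epithelium, where KRT19 is a common marker of ductal cells and of ductal pancreatic cancer. KRT80 is a type II keratin found in many epithelia, at cell margins near desmosomes.

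RNA of human cells in culture was sequenced in 12 libraries from the pancreatic ductal adenocarcinoma lines Panc1 and MiaPaCa2. There were 3 libraries each of Panc1 with a knockout (KO) of ASAP2, wild-type (WT) Panc1, MiaPaCa2 with the ASAP2 knockout and wild-type MiaPaCa2. ASAP2 is a GTPase-activating protein for Arf GTPases that acts in membrane traffic and at focal adhesions. No other treatment or allele is named. The sources do not say how the knockout was made, how many clones it comprises or whether the 3 libraries of each group are separate cultures, and the p-values cover no more than the spread among the libraries, which may be technical.

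Values are FPKM, fragment counts scaled by transcript length and by mapped fragments, which are per length and can be compared between genes within these libraries. A library listed 17958 to 19105 genes, and read depth is unknown. Changes are differences of log2(FPKM + 1), which understates changes of low genes, and levels are the mean ± SD of 3 libraries. ASAP2 had 13.8 ± 0.978 FPKM in Panc1 KO cells and 36.9 ± 2.04 FPKM in Panc1 WT cells, against 12.3 ± 1.29 FPKM in MiaPaCa2 KO cells and 13.5 ± 0.320 FPKM in MiaPaCa2 WT cells. Its log2 difference was -1.36 in Panc1 (adjusted p = 1.5e-08, limma with Benjamini-Hochberg adjustment) and -0.13 in MiaPaCa2 (adjusted p = 0.197), so the knockout label of the MiaPaCa2 libraries is not checked by this mRNA. Without MiaPaCa2 KO replicate 2 the MiaPaCa2 value was -0.20 and passed (adjusted p = 0.0316). The label of ductal epithelium was met in part. Of 8 further ductal markers, EPCAM, MUC1 and SOX9 reached a mean of 1 FPKM in both Panc1 groups, and MUC1 and SOX9 in both MiaPaCa2 groups, where EPCAM and CDH1 were below 0.1 FPKM in every library. CFTR, SPP1 and TSPAN8 were below 0.1 FPKM in all 12 libraries.

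The genes lie in the keratin clusters of chromosomes 12 and 17 (GRCh37, which is hg19). KRT19 is on chromosome 17 from 39679869 to 39684560 on the minus strand, in the type I cluster. KRT18 is the only type I keratin gene in the type II cluster, on chromosome 12 from 53342655 to 53346690 on the plus strand. KRT8 (53290971 to 53343738, minus strand) overlaps its start, so reads of KRT8 and KRT18 from that overlap cannot be told apart where strand was not used in counting. KRT7 (52626304 to 52645970, plus strand) and KRT80 (52562780 to 52585798, minus strand) lie farther along the same cluster. KRT8, KRT18 and KRT19 have processed pseudogenes of similar sequence, and how reads with several matches were counted is not given, so their levels hold that uncertainty.

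KRT19 was lower in the KO libraries of both lines, and no other of the 5 keratins was. KRT8, KRT18 and KRT80 were higher in the Panc1 KO libraries and lower in the MiaPaCa2 KO libraries, each without overlap between KO and WT. KRT7 overlapped in both lines. In Panc1 this makes 3 keratins higher and 1 lower without overlap, where 70.1% of all 13340 genes tested had no overlap, 24.7% higher and 45.3% lower, and 63.5% were called at an adjusted p below 0.05. In MiaPaCa2 it makes 4 keratins lower without overlap, where 43.5% of all genes had no overlap, 23.0% higher and 20.5% lower, and 34.1% were called. Being higher in Panc1 KO and lower in MiaPaCa2 KO libraries without overlap was found for 752 genes, or 5.64%, being lower in both for 1213, or 9.09%, being higher in both for 6.56% and being lower in Panc1 KO and higher in MiaPaCa2 KO libraries for 9.36%. The difference of the knockout changes between the lines was called for 57.4% of all genes. Relative to the median of all genes, which was -0.10 in Panc1 and 0.01 in MiaPaCa2, the log2 difference was 0.57 and -0.51 for KRT8, 0.48 and -0.32 for KRT18, 0.34 and -0.45 for KRT80 and -0.99 and -1.58 for KRT19 in Panc1 and MiaPaCa2. Since the keratins were chosen with these contrasts known, nothing is read from these shares.

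**Figure D1:**
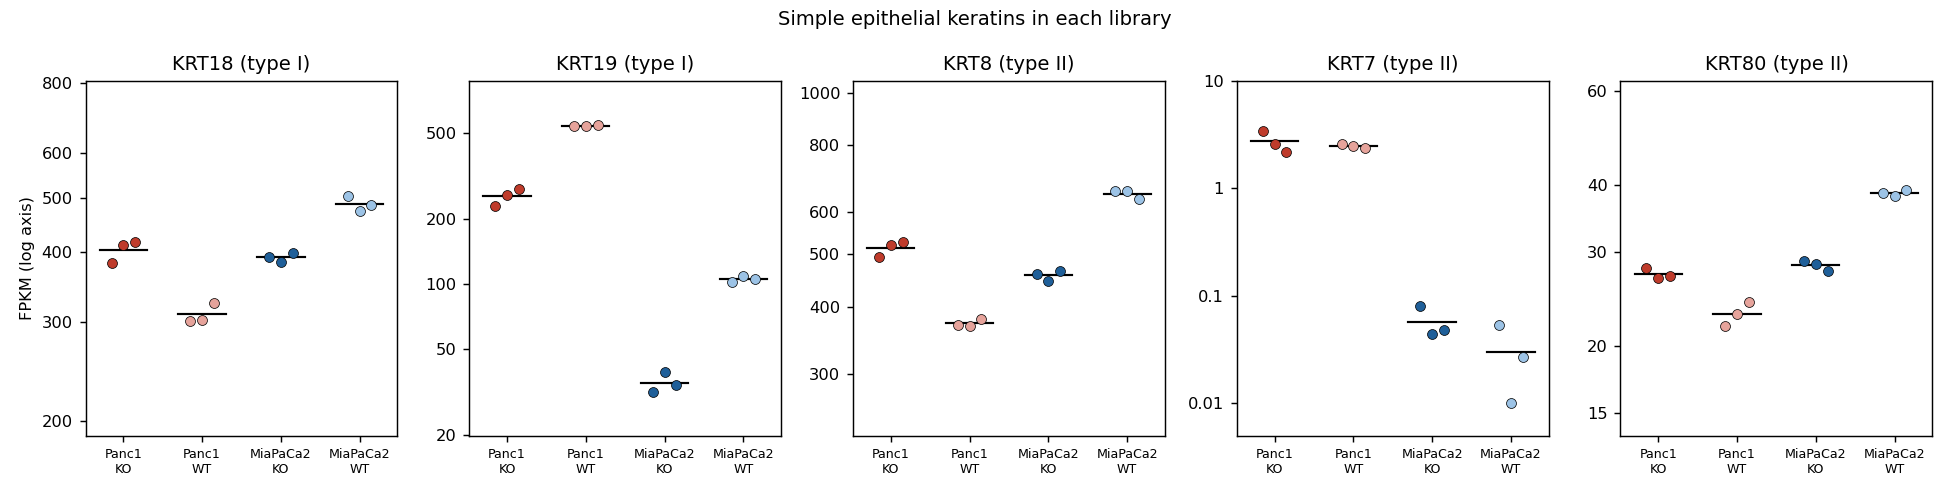
FPKM (log axes, 1 range per panel) of the 5 keratins in each library, with Panc1 in red and MiaPaCa2 in blue, KO left of WT, and bars for the mean of 3 libraries. KRT19 is lower in KO than in WT cells of both lines, while KRT18, KRT8 and KRT80 are higher in Panc1 KO and lower in MiaPaCa2 KO cells.

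KRT19, the short type I keratin that lacks most of the tail domain, had 229, 258 and 276 FPKM in the 3 Panc1 KO libraries and 541, 539 and 543 FPKM in the 3 Panc1 WT libraries. Every KO library lay below every WT library, and the KO libraries were spread far more widely than the WT ones. The means were 254 ± 24.0 FPKM in Panc1 KO and 541 ± 2.11 FPKM in Panc1 WT cells, a log2 difference of -1.09 (SE 0.07), and 108 of the 13340 genes had a smaller value of this difference. In MiaPaCa2, KRT19 had 31.8, 39.2 and 34.0 FPKM in KO libraries and 102, 109 and 105 FPKM in WT libraries. The groups were again apart, with the highest KO library well under the lowest WT library. The means were 35.0 ± 3.79 FPKM in MiaPaCa2 KO and 105 ± 3.09 FPKM in MiaPaCa2 WT cells, with a log2 difference of -1.57 (SE 0.07), and 24 genes had a smaller value. As a ratio of means, KRT19 in KO cells stood at 0.470 of the WT level in Panc1 and at 0.332 in MiaPaCa2. Its 4 groups ran in the order MiaPaCa2 KO, MiaPaCa2 WT, Panc1 KO and Panc1 WT with no overlap between neighbours. In cultures sequenced in bulk, fewer cells that make a transcript and less of it per cell cannot be told apart.

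KRT8, the type II keratin that pairs with KRT18 and can also pair with KRT19, had 496, 519.7 and 528 FPKM in Panc1 KO libraries and 369, 368 and 379.8 FPKM in Panc1 WT libraries. All 3 KO libraries lay above all 3 WT libraries. The log2 difference was 0.46 (SE 0.04), from means of 514 ± 16.7 FPKM in KO and 372 ± 6.39 FPKM in WT cells. In MiaPaCa2 it had 461, 446 and 465 FPKM in KO libraries and 656, 655 and 635 FPKM in WT libraries. Here the KO libraries all lay below the WT libraries, at means of 457 ± 10.1 FPKM in KO and 649 ± 12.3 FPKM in WT cells, a log2 difference of -0.50 (SE 0.04). The order of its groups was Panc1 WT, MiaPaCa2 KO, Panc1 KO and MiaPaCa2 WT, with neighbours apart.

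A RefSeq promoter window (GRCh38.p14) was at hand for 1 of the 5, KRT8, and is shown because KRT8 is the main type II keratin here and went the other way from KRT19 in Panc1. It matched GRCh37 once, at chr12:53320254-53320503 on the minus strand, and holds the 250 bases before a start at 53320253, where 1 of 18 annotated KRT8 transcripts begins. That start lies inside the annotated KRT8 gene, and FPKM per gene do not tell which start was used. The capitals mark a match to CCGGAA, the core bound by ETS factors, on the other strand.
KRT8: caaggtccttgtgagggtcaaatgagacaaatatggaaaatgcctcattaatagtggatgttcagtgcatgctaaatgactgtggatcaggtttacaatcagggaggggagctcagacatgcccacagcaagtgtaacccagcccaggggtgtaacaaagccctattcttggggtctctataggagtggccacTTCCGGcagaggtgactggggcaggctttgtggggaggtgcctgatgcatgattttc
The match begins at base 194 from the 5′ end, and 14.5% of 35116 promoter windows of this length hold one on either strand. Searched on both strands, 4 other motifs were not among the letters of this window. The AP-1 site TGANTCA is held by 6.57% of all windows. The share is 42.6% for the GC box, whose letters are GGGCGG. For the CACCC box, searched as CCACCC, it is 31.3% of windows. For the TATA box, searched as TATAAA, it is 10.7%.

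KRT18, the type I partner of KRT8, had 382, 412 and 418 FPKM in Panc1 KO libraries and 302, 303 and 325 FPKM in Panc1 WT libraries. The groups did not overlap and KO was higher, by a log2 difference of 0.38 (SE 0.04) between means of 404 ± 19.1 FPKM in KO and 309.9 ± 12.7 FPKM in WT cells. In MiaPaCa2 it had 392, 384 and 399 FPKM in KO libraries and 503, 472 and 484 FPKM in WT libraries. KO was lower there without overlap, at 392 ± 7.59 FPKM in KO and 487 ± 15.7 FPKM in WT cells, a log2 difference of -0.31 (SE 0.04). Panc1 KO and MiaPaCa2 KO libraries overlapped in KRT18, between the lower Panc1 WT and the higher MiaPaCa2 WT libraries.

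KRT80 was lower in level than the pair of KRT8 and KRT18 but showed the same directions. It had 28.0, 26.9 and 27.1 FPKM in Panc1 KO libraries and 21.8, 22.9 and 24.2 FPKM in Panc1 WT libraries. KO lay above WT without overlap, by a log2 difference of 0.24 (SE 0.04). In MiaPaCa2 it had 28.8, 28.4 and 27.7 FPKM in KO libraries and 38.7, 38.1 and 39.1 FPKM in WT libraries. KO lay below WT without overlap, by a log2 difference of -0.44 (SE 0.04), and as for KRT18 the KO libraries of both lines overlapped. The changes of KRT8, KRT18 and KRT80 were smaller than that of KRT19 in both lines, with KO to WT ratios of 1.38, 1.30 and 1.19 in Panc1 and of 0.705, 0.805 and 0.732 in MiaPaCa2.

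KRT7, the type II keratin of ductal epithelium, was a minor transcript in both lines. It had 3.449, 2.615 and 2.203 FPKM in Panc1 KO libraries and 2.578, 2.474 and 2.375 FPKM in Panc1 WT libraries. KO libraries lay on both sides of WT libraries, and the log2 difference of 0.10 (SE 0.09) is within that spread. In MiaPaCa2 all 6 libraries were below 0.1 FPKM, at 0.081, 0.044 and 0.048 FPKM in KO and 0.054, 0.010 and 0.027 FPKM in WT libraries. KRT7 passed the filter of 1 FPKM through Panc1 alone, and its level in MiaPaCa2 gives no usable knockout difference.

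Between the wild-type lines the 5 keratins differed in both directions. These values are a description with no test, because the genes were taken by their FPKM over all 4 groups, and the WT libraries are those of the knockout contrasts. KRT19 and KRT7 were higher in Panc1 WT than in MiaPaCa2 WT cells and KRT8, KRT18 and KRT80 were lower, each without overlap. KRT19 averaged 541 FPKM in Panc1 WT and 105 FPKM in MiaPaCa2 WT cells, 5.13 times as much, a log2 difference of 2.35 (SE 0.07). The log2 difference was -0.80 (SE 0.04) for KRT8, -0.73 (SE 0.04) for KRT80 and -0.65 (SE 0.04) for KRT18. It was 1.75 (SE 0.09) for KRT7, which passed the filter through Panc1 alone and so had to be higher there. Of all genes tested 82.7% were called between these lines by limma with Benjamini-Hochberg adjustment, 41.8% higher and 40.9% lower in Panc1, and nothing is read from that share.

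Because keratins pair across types, the summed level of the type I members was set beside that of the type II members in each library. The sum of KRT18 and KRT19 was 658 ± 42.8 FPKM in Panc1 KO and 851 ± 14.6 FPKM in Panc1 WT cells, while the sum of KRT7, KRT8 and KRT80 was 544 ± 15.5 FPKM in Panc1 KO and 398 ± 7.34 FPKM in Panc1 WT cells. The ratio of type I to type II was thus 1.21 ± 0.0447 in Panc1 KO and 2.14 ± 0.00297 in Panc1 WT cells, with no overlap. In MiaPaCa2 both sums were lower in KO cells, at 427 ± 5.56 FPKM in KO and 592 ± 12.6 FPKM in WT cells for type I, and 486 FPKM (475 to 493) in KO and 687 FPKM (674 to 695) in WT cells for type II. Their ratio was 0.879 ± 0.0129 in MiaPaCa2 KO and 0.861 ± 0.0206 in MiaPaCa2 WT cells, and the libraries of the groups overlapped. KRT19 made up 38.6 ± 1.19% of the type I sum in Panc1 KO and 63.6 ± 0.868% in Panc1 WT cells, against 8.20 ± 0.930% in MiaPaCa2 KO and 17.8 ± 0.893% in MiaPaCa2 WT cells. All 5 keratins together held 0.315% of the FPKM sum of a library in Panc1 KO and 0.344% in Panc1 WT cells, and 0.236% in MiaPaCa2 KO and 0.330% in MiaPaCa2 WT cells.

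**Figure D2:**
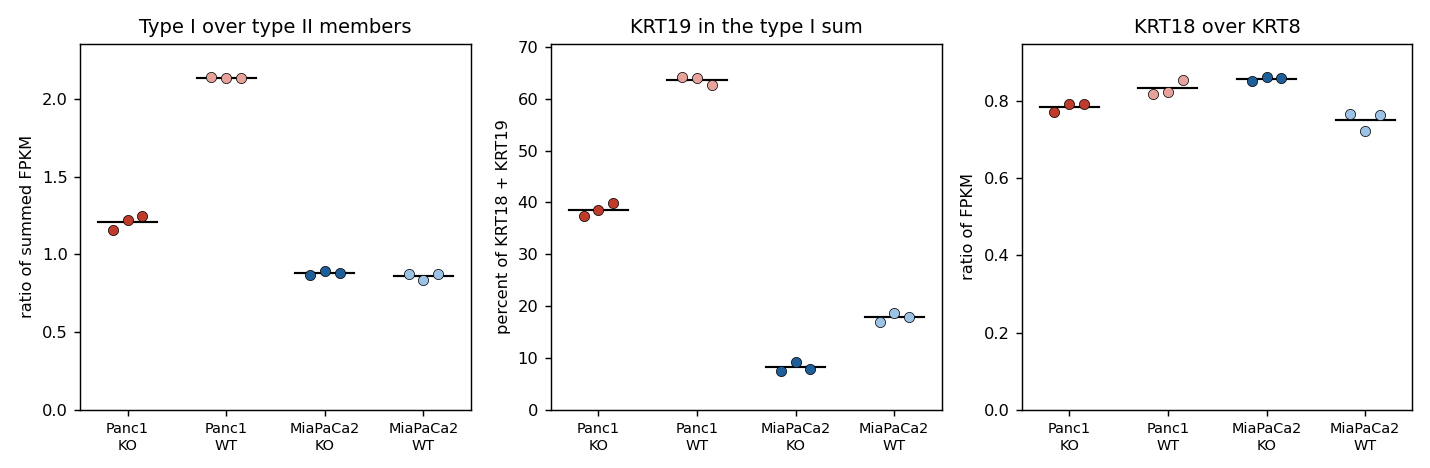
Balance of the keratins in each library, as the ratio of summed FPKM of type I (KRT18, KRT19) to type II members (KRT7, KRT8, KRT80), as the percent of KRT19 in the type I sum, and as the ratio of KRT18 to KRT8. Points are libraries and bars means, and the type I to type II ratio of 1.21 in Panc1 KO cells stands between 2.14 in Panc1 WT cells and the MiaPaCa2 groups near 0.879 and 0.861.

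The ratio of KRT18 to KRT8, the pair itself, was 0.785 ± 0.0122 in Panc1 KO and 0.832 ± 0.0199 in Panc1 WT cells, and 0.857 ± 0.00493 in MiaPaCa2 KO and 0.750 ± 0.0257 in MiaPaCa2 WT cells. The groups were apart in each line, in opposite directions. KRT80 stood at 0.0532 ± 0.00285 of KRT8 in Panc1 KO and 0.0616 ± 0.00239 in Panc1 WT cells, and at 0.0619 ± 0.00222 in MiaPaCa2 KO and 0.0596 ± 0.00180 in MiaPaCa2 WT cells.

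Other keratins were mostly near 0. Of 50 further keratin genes looked for, 33 were listed and 5 passed the filter. KRT15, a type I keratin of basal cells, fell in both knockouts. It had 2.525 ± 0.105 FPKM in Panc1 KO and 5.776 ± 0.455 FPKM in Panc1 WT cells (log2 difference -0.94, limma adjusted p = 1.7e-06). In MiaPaCa2 it had 1.321 ± 0.297 FPKM in KO and 3.438 ± 0.230 FPKM in WT cells (log2 difference -0.94, limma adjusted p = 8.6e-06). KRT15 is the next gene downstream of KRT19 on the same strand, 1087 bases past its end. Its level was 0.999 ± 0.109% of that of KRT19 in Panc1 KO and 1.07 ± 0.0879% in Panc1 WT cells, and 3.86 ± 1.24% in MiaPaCa2 KO and 3.26 ± 0.145% in MiaPaCa2 WT cells. These percentages overlapped between KO and WT in both lines, and whether reads running on from KRT19 take part in the KRT15 values was not tested.

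KRT13, a type I keratin of non-keratinizing stratified epithelium in the same cluster as KRT19, fell in MiaPaCa2, with 0.313 ± 0.138 FPKM in KO and 2.003 ± 0.169 FPKM in WT cells (log2 difference -1.20, limma adjusted p = 2.9e-07). In Panc1 it was near 0 in both groups, with a log2 difference of -0.01 (limma adjusted p = 0.922). KRT10, a type I keratin of the differentiated epidermis, had 8.290 ± 0.312 FPKM in Panc1 KO and 8.101 ± 0.407 FPKM in Panc1 WT cells, and 3.108 ± 0.212 FPKM in MiaPaCa2 KO and 2.880 ± 0.295 FPKM in MiaPaCa2 WT cells, which did not pass the test in either line. The type II hair keratins KRT81 and KRT86 rose in Panc1 KO cells, by 0.84 (limma adjusted p = 2.6e-05) and 0.54 (limma adjusted p = 2.2e-05). In MiaPaCa2 KO cells KRT86 rose by 0.49 (limma adjusted p = 0.0002) and KRT81 by 0.35 (limma adjusted p = 0.0258), a KRT81 call that was lost under 6 of the alternatives (adjusted p over all of them 0.00766 to 0.107), 4 of which left out a library, MiaPaCa2 WT replicate 2 or 3 or MiaPaCa2 KO replicate 1 or 3. KRT81 and KRT86 are near-identical in sequence, and the annotated KRT86 gene spans KRT81 and overlaps KRT7, so their levels are uncertain.

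**Figure D3:**
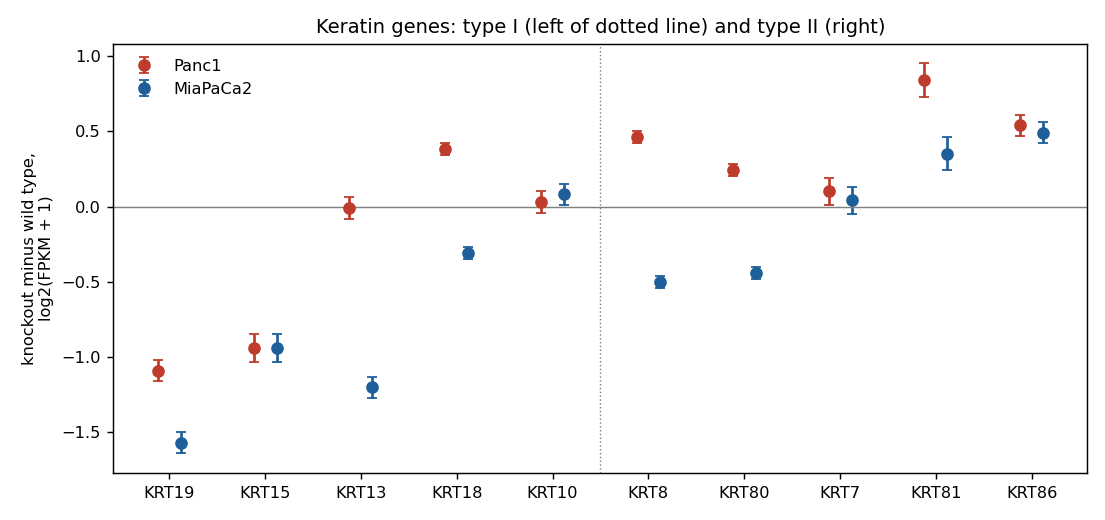
Difference of log2(FPKM + 1), KO minus WT, of the 10 keratins that passed the filter, with type I left and type II right of the dotted line, Panc1 in red, MiaPaCa2 in blue, and bars for the standard error. KRT19 and KRT15 are below 0 in both lines, and KRT18, KRT8 and KRT80 lie above 0 in Panc1 and below 0 in MiaPaCa2.

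Genes around the keratins changed in both directions, as did all genes tested, of which 21.8% rose and 41.6% fell in Panc1 KO cells and 17.8% rose and 16.3% fell in MiaPaCa2 KO cells. Among 25 other tested genes within 1 Mb of KRT19, 11 rose and 5 fell in Panc1 KO cells (median log2 difference 0.11, against -0.10 for all genes) and 6 rose and 6 fell in MiaPaCa2 KO cells (median 0.06, against 0.01). The genes that fell in both lines numbered 1, KRT15. Those that rose in both were 5, ATP6V0A1, EIF1, STAT3, STAT5A and STAT5B, and 1 rose in Panc1 and fell in MiaPaCa2, DHX58. Apart from EIF1 and KRT15, these genes were named after their values were seen. Of all genes tested, 9.09% were lower and 6.56% higher in both knockouts without overlap. Another 5.64% were higher in Panc1 KO and lower in MiaPaCa2 KO cells without overlap. The shares of all genes called in both lines are not given, so nothing is read from the counts called in both. EIF1, a translation initiation factor and the nearest tested gene on the other side of KRT19, rose by 0.47 in Panc1 KO (limma adjusted p = 2.7e-07) and by 0.37 in MiaPaCa2 KO cells (limma adjusted p = 1e-05). Among 28 other tested genes within 1 Mb of KRT8, 5 rose and 13 fell in Panc1 KO cells (median -0.12) and 8 rose and 3 fell in MiaPaCa2 KO cells (median 0.03). The whole chromosomes, without the 5 keratins, also differed in Panc1 KO cells. On chromosome 17, 271 of 788 tested genes rose and 201 fell (median 0.04, against -0.11 for other genes). On chromosome 12, 105 of 638 rose and 291 fell (median -0.13, against -0.10). Whether the surplus of rising genes near KRT19 in Panc1 is local was not tested. EIF4B, the translation factor gene next to KRT18, rose by 0.34 in Panc1 KO (limma adjusted p = 2e-05) and by 0.17 in MiaPaCa2 KO cells (limma adjusted p = 0.00743). KRT7-AS, an antisense RNA inside KRT7, had 1.013 ± 0.265 FPKM in Panc1 KO and 1.084 ± 0.193 FPKM in Panc1 WT cells and was close to 0 in MiaPaCa2. Reads of KRT7 and KRT7-AS cannot be told apart where strand was not used.

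**Figure D4:**
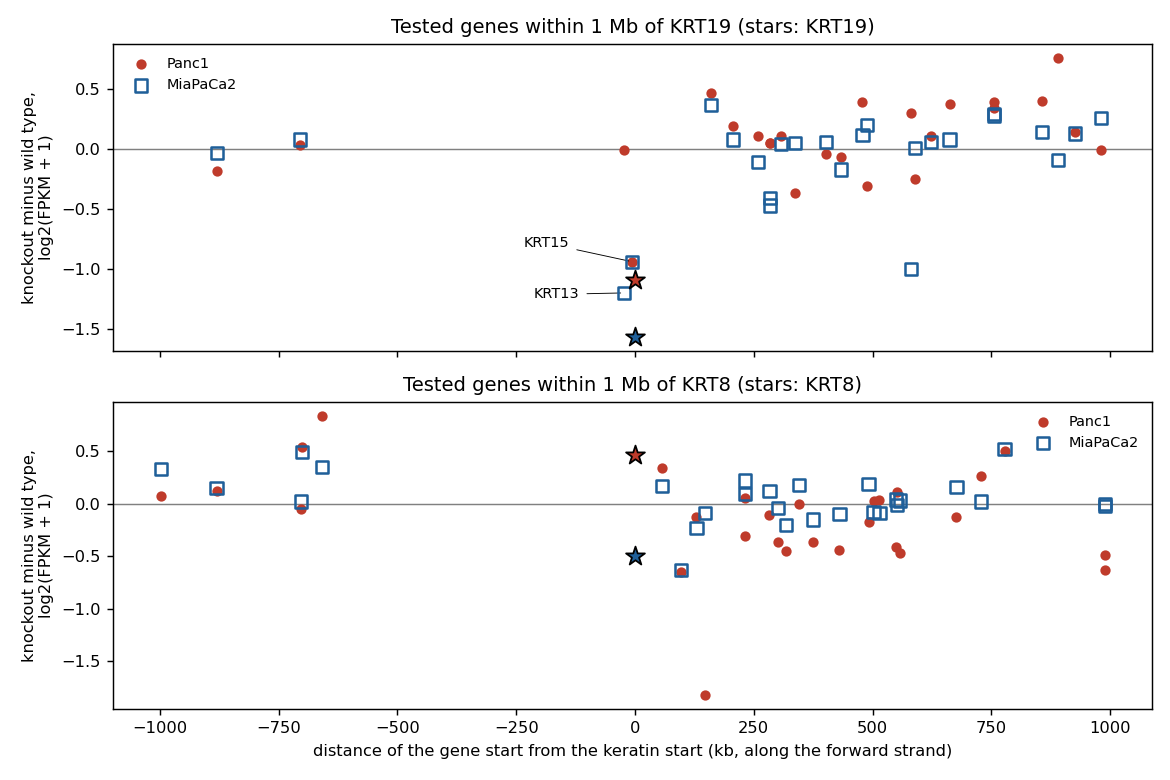
Difference of log2(FPKM + 1), KO minus WT, of tested genes within 1 Mb of KRT19 (top) and KRT8 (bottom) against the distance of their start in kb, with circles for Panc1, open squares for MiaPaCa2 and stars for the keratin itself. KRT15 lies close to KRT19 at -0.94 in both lines. The medians in Panc1 and MiaPaCa2 are 0.11 and 0.06 around KRT19, KRT15 included, and -0.12 and 0.03 around KRT8.

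The pattern of each keratin over the 12 libraries was set beside that of the other 13339 genes tested, by the root mean square difference of centred log2 values, where 0 is the same pattern. This measure uses the values that chose the genes and is a description over 4 groups of 3 libraries. KRT18 ranked 3 among the genes most like KRT8, at 0.079, after TWF2, an actin monomer-binding protein (0.057), and MYBL2, a cell cycle transcription factor (0.066). KRT80 ranked 9 from KRT8, at 0.101. The genes most like KRT18 were PACSIN3 (0.053), which shapes endocytic membranes, ARHGDIA (0.069) and the kinase gene AKT1 (0.072), with KRT8 at rank 7. Those most like KRT80 were USP39 (0.065), a splicing factor, AUP1 (0.067), of lipid droplets and protein degradation, and RPS27A (0.070), a ribosomal protein fused to ubiquitin that has pseudogenes. For KRT19 the distances were larger: the nearest were FABP5 (0.281), a fatty acid-binding protein with pseudogenes, PDE3B (0.315), a cyclic nucleotide phosphodiesterase, KLHL4 (0.422), a kelch-like protein, OAS3 (0.442), an antiviral oligoadenylate synthetase, and CRIP2 (0.457), a LIM-domain protein. The measure is not scaled and grows with the size of a gene's differences, which were larger for KRT19 than for KRT8, KRT18 and KRT80. A lack of genes of like pattern is not read from these distances. From KRT19, KRT7 ranked 649, KRT8 8327, KRT18 8359 and KRT80 8549. The distances take in the difference between the lines as well as that between KO and WT, so the ranks are not read as knockout patterns. Nearest to KRT7 were PRKG1 (0.086), a cyclic GMP-dependent kinase, TUSC1 (0.092) and CUX2 (0.093), a homeobox factor, all low or absent in MiaPaCa2 as KRT7 was.

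Genes whose proteins tie keratins to desmosomes and hemidesmosomes changed in both directions in Panc1. Of 15 linker and desmosome plaque genes tested, 5 rose and 6 fell in Panc1 KO cells, where 21.8% of all genes rose and 41.6% fell, and their median log2 difference was 0.07. In MiaPaCa2 KO cells 2 fell and 13 did not pass (median -0.08), where 17.8% of all genes rose and 16.3% fell. DSP, desmoplakin, which anchors keratin filaments at desmosomes, rose in Panc1, with 7.159 to 7.631 FPKM in KO and 0.242 to 0.314 FPKM in WT libraries (log2 difference 2.74, limma adjusted p = 1.5e-10). In MiaPaCa2 it had 6.147 ± 1.03 FPKM in KO and 6.158 ± 0.181 FPKM in WT cells. DSC2, a desmosomal cadherin, fell in both, by 0.49 in Panc1 KO (limma adjusted p = 1.8e-05) and by 0.33 in MiaPaCa2 KO cells (limma adjusted p = 0.0013). PKP3, a desmosome plaque protein, fell by 0.81 in MiaPaCa2 KO cells (limma adjusted p = 0.00022), and its fall by 0.32 in Panc1 KO cells (limma adjusted p = 0.0252) was lost under 7 of the alternatives (adjusted p 0.00242 to 0.125), 4 of which left out Panc1 WT replicate 1 or 3 or Panc1 KO replicate 1 or 2. PNN, pinin, which has been found at desmosomes and in the nucleus, fell by 0.51 in Panc1 KO cells (limma adjusted p = 0.00029).

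Of 14 chaperones and adaptors that bind keratins, 3 rose and 4 fell in Panc1 KO cells, and 1 rose and 3 fell in MiaPaCa2 KO cells, with median log2 differences of 0.03 in Panc1 and -0.03 in MiaPaCa2. Over all genes tested, 21.8% rose and 41.6% fell in Panc1 KO cells, with a median of -0.10. In MiaPaCa2 KO cells 17.8% of all genes rose and 16.3% fell, with a median of 0.01. HSPB1, a small heat shock protein that associates with KRT8 and KRT18 filaments, had 461 ± 27.2 FPKM in Panc1 KO and 375 ± 34.0 FPKM in Panc1 WT cells (log2 difference 0.30, limma adjusted p = 0.0102), and 585 ± 69.6 FPKM in MiaPaCa2 KO and 747 ± 48.0 FPKM in MiaPaCa2 WT cells (log2 difference -0.36, limma adjusted p = 0.00848). The HSPB1 call was lost with quantile normalization and without Panc1 WT replicate 2 in Panc1 (adjusted p 0.00163 to 0.204 over all alternatives), and with each line fitted alone in MiaPaCa2 (0.00529 to 0.0516). HSPA8, the constitutive HSC70 chaperone, fell by 0.67 in Panc1 KO cells (limma adjusted p = 6.1e-06), and BAG1, its cochaperone, by 0.32 (limma adjusted p = 0.00281), a call that quantile normalization ended (adjusted p 0.00065 to 0.0605 over all alternatives). TRIM21, a ubiquitin ligase, fell by 0.35 in Panc1 KO (limma adjusted p = 0.00104) and by 0.27 in MiaPaCa2 KO cells (limma adjusted p = 0.0122), which was lost when each line was fitted alone (adjusted p 0.00151 to 0.0852).

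All 7 other intermediate filament genes tested changed in MiaPaCa2 KO cells, 2 higher and 5 lower, and in Panc1 KO cells 2 rose and 3 fell. Of all genes 17.8% rose and 16.3% fell in MiaPaCa2 KO cells, and 21.8% rose and 41.6% fell in Panc1 KO cells. The median log2 difference of the 7 was -0.29 in MiaPaCa2 and 0.01 in Panc1. VIM, vimentin, the filament of mesenchymal cells, was higher in FPKM than each of the 5 keratins in every group. It fell in MiaPaCa2, with 1993 ± 78.3 FPKM in KO and 2442 ± 37.5 FPKM in WT cells (log2 difference -0.29, limma adjusted p = 0.00022), the direction of KRT8 and KRT18 there. In Panc1 it had 2706 ± 28.0 FPKM in KO and 2255 ± 84.3 FPKM in WT cells (log2 difference 0.26, limma adjusted p = 0.00013), a direction that turned to -0.17 with quantile normalization. The reversed value was still called, with a limma adjusted p of at most 0.0461 over all alternatives. LMNA, which encodes the A-type lamins, fell by 0.70 in MiaPaCa2 KO cells (limma adjusted p = 1.3e-05), and its rise by 0.20 in Panc1 KO cells (limma adjusted p = 0.0197) was lost under 5 of the alternatives (adjusted p 0.00217 to 0.353), 3 of which left out Panc1 WT replicate 1 or Panc1 KO replicate 2 or 3. SYNM, synemin, which forms filaments with vimentin or desmin, fell in both, by 0.78 in Panc1 KO (limma adjusted p = 3.3e-06) and 0.60 in MiaPaCa2 KO cells (limma adjusted p = 0.00013). LMNB1, lamin B1, fell by 0.66 in Panc1 KO (limma adjusted p = 1.1e-06) and by 0.26 in MiaPaCa2 KO cells (limma adjusted p = 0.00399). BFSP1, a lens filament protein, rose by 0.67 in MiaPaCa2 KO cells (limma adjusted p = 0.0067), which was lost when each line was fitted alone (adjusted p 0.00358 to 0.0655).

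**Figure D5:**
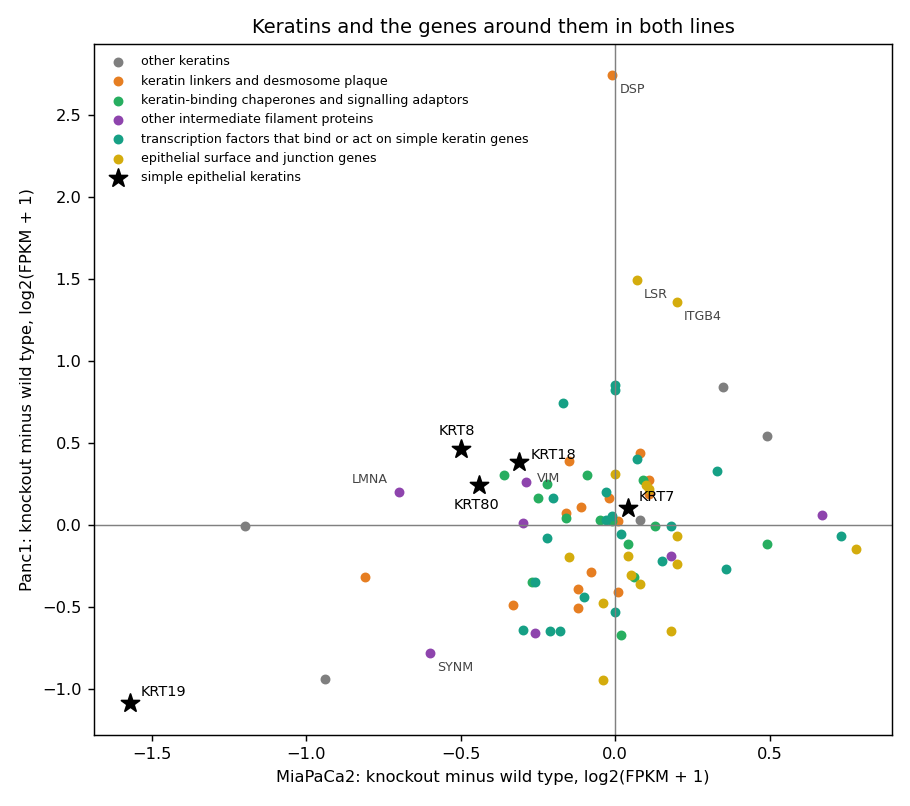
Difference of log2(FPKM + 1), KO minus WT, in Panc1 against that in MiaPaCa2, for the 5 keratins (stars) and the tested genes of 6 lists of related genes (circles, coloured by list). KRT8, KRT18 and KRT80 lie at upper left and DSP lies high at -0.01 on the MiaPaCa2 axis. KRT19 lies at lower left, where KRT15, SYNM, DSC2, PKP3 and other genes also lie.

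Among 21 transcription factors that bind or act on simple keratin genes, 7 rose and 8 fell in Panc1 KO cells and 4 rose and 4 fell in MiaPaCa2 KO cells, with medians of -0.06 in Panc1 and -0.01 in MiaPaCa2. The shares over all genes were 21.8% higher and 41.6% lower in Panc1 KO cells (median -0.10), and 17.8% higher and 16.3% lower in MiaPaCa2 KO cells (median 0.01). GRHL3 (grainyhead-like) and TFAP2C (AP-2 gamma), factors of epithelial differentiation, rose in Panc1 KO cells. KLF4 and GATA6 of the same list fell there, with log2 differences of -0.65 (limma adjusted p = 0.00014) and -0.53 (limma adjusted p = 1.6e-06). GRHL3 had 6.073 ± 0.0723 FPKM in Panc1 KO and 2.926 ± 0.210 FPKM in Panc1 WT cells, a log2 difference of 0.85 (limma adjusted p = 5.7e-08), and TFAP2C differed by 0.82 (limma adjusted p = 5.5e-07). Neither was listed above 0 in a MiaPaCa2 library. JUNB, of the AP-1 family, rose by 0.74 in Panc1 KO cells (limma adjusted p = 3.4e-06). JUN and FOSL1 of that family rose there by 0.20 (limma adjusted p = 0.00568) and 0.16 (limma adjusted p = 0.0294). FOS fell there, with a log2 difference of -0.65 (limma adjusted p = 0.00057). ETS1, an ETS factor, rose by 0.33 in Panc1 KO (limma adjusted p = 0.00134) and by 0.33 in MiaPaCa2 KO cells (limma adjusted p = 0.00386). ETS2, another, fell in both, with log2 differences of -0.64 in Panc1 (limma adjusted p = 1e-06) and -0.30 in MiaPaCa2 (limma adjusted p = 0.00157). ELF1, of the same family, differed by -0.22 in Panc1 (limma adjusted p = 0.00211) and by 0.15 in MiaPaCa2 (limma adjusted p = 0.0377). KLF4, GATA6, FOS, JUN, FOSL1, ETS2 and ELF1 were named after their values were seen. RUNX1 rose by 0.36 in MiaPaCa2 KO cells (limma adjusted p = 0.00017) and fell by 0.27 in Panc1 KO cells (limma adjusted p = 0.00047). TP63, the factor of basal and squamous epithelium, rose in MiaPaCa2, with 21.1 ± 2.19 FPKM in KO and 12.4 ± 1.42 FPKM in WT cells (log2 difference 0.73, limma adjusted p = 0.00028), a call that a pseudocount of 0.1 ended (adjusted p 7.4e-05 to 0.146).

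Of 15 epithelial surface and junction genes, 5 rose and 8 fell in Panc1 KO cells, with a median log2 difference of -0.19, and 2 rose and 13 did not pass in MiaPaCa2 KO cells, with a median of 0.08. For all genes these were 21.8% higher and 41.6% lower in Panc1 KO cells (median -0.10), and 17.8% higher and 16.3% lower in MiaPaCa2 KO cells (median 0.01). LSR, of tricellular junctions, had 27.1 ± 0.768 FPKM in Panc1 KO and 9.049 ± 1.14 FPKM in Panc1 WT cells (log2 difference 1.49, limma adjusted p = 5.6e-09). ITGB4, the integrin chain through which hemidesmosomes hold keratins, rose by 1.36 in Panc1 KO cells (limma adjusted p = 5e-07), while CLDN7, a tight junction claudin, fell by 0.95 (limma adjusted p = 3.5e-06). CLDN1, another claudin, rose by 0.78 in MiaPaCa2 KO cells (limma adjusted p = 9e-05).

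Measures of whole libraries moved with some of these values. In Panc1 65.6% of the genes called were lower in KO cells, and this was 73.7% with libraries rescaled to the same sum, 50.5% when rescaled by the median ratio and 52.0% with quantile normalization. KRT8, KRT18, KRT80 and KRT19 kept their directions under all 3. The summed FPKM of 7 listed (of 10) fibroblast and stellate markers, mainly COL1A1 in Panc1, was 302 to 388 in Panc1 KO and 105 to 111 in Panc1 WT libraries, with LUM and COL3A1 below 0.1 FPKM in each, and 0.449 to 0.613 in MiaPaCa2 KO and 0.273 to 0.402 in MiaPaCa2 WT libraries. Its members went both ways in Panc1. COL1A1 and THY1 rose, by 1.79 (limma adjusted p = 9e-09) and 1.30 (limma adjusted p = 3.8e-09), while PDGFRA fell to 1.517 ± 0.183 FPKM in Panc1 KO cells, against 11.19 ± 0.439 FPKM in Panc1 WT cells (log2 difference -2.28, limma adjusted p = 4.9e-11). Of the leukocyte markers, LYZ rose in MiaPaCa2, with 121.7 ± 12.3 FPKM in KO and 28.67 ± 8.33 FPKM in WT cells (log2 difference 2.08, limma adjusted p = 5.5e-05), and CD68 fell there by 0.49 (limma adjusted p = 6.3e-06). Of the endothelial markers, ESAM and EGFL7 rose in Panc1 KO cells, by 0.76 (limma adjusted p = 6.4e-05) and 0.62 (limma adjusted p = 2.2e-06), and EGFL7 fell by 0.31 in MiaPaCa2 KO cells (limma adjusted p = 0.00175). These markers were named after their values were seen. The part of these markers in the keratin differences was not tested. The defining markers PTPRC of leukocytes and PECAM1, CDH5, VWF and KDR of endothelium were below 0.1 FPKM in all libraries.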

How the data were processed

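The series' design text names the BGISEQ-500 as the sequencer, TopHat2 2.0.14 on hg19 as the aligner of the cleaned reads and STAR 2.5.2a as the source of the FPKM. Each deposited file holds 1 FPKM value per gene symbol, as computed by the authors. The sources do not state the library kit, the use of strand, the number of reads or how reads with several matches were treated. A symbol missing from a library was taken as 0. Whole reads could not be recovered from FPKM, so no count test was run and no counting error is given.

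limma 3.58.1 in R 4.3.3 was fitted to log2(FPKM + 1) with 1 mean for each of 4 groups (8 residual degrees of freedom), eBayes with trend, two-sided, adjusted by Benjamini-Hochberg over the 13340 genes that averaged 1 FPKM or more across all 6 libraries of Panc1 or of MiaPaCa2. Genes were called at an adjusted p below 0.05. The fit was tested on simulated data.

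The keratins and the gene, marker and motif lists were chosen with earlier results of these data known, so nothing about them is independent of those results. A limma test of the keratins between the wild-type lines had been planned and is not given for that reason. Named besides the 5 keratins are ASAP2, every other keratin passing the filter, up to 3 called genes per list and line with the largest change, no overlap and at least 1 FPKM, the genes most like each keratin, and the nearest tested neighbours. Further genes were named after their values were seen, as is said where they appear. Positions come from GENCODE release 44 mapped to GRCh37, and the promoter from RefSeq.

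Alternatives were a pseudocount of 0.1, no filter, a filter of 5 FPKM, 3 rescalings, limma without trend, each line alone, a replicate block, and each library left out.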

Additional observations from a re-analysis of the deposited data

Results flagged for a closer look

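The knockout differences of several genes differed between the lines. For KRT8, KRT18 and KRT80, every KO library lay above the WT libraries in Panc1 and below them in MiaPaCa2, so the log2 difference in Panc1 minus that in MiaPaCa2 was 0.97 for KRT8, 0.69 for KRT18 and 0.68 for KRT80. This difference between lines was not tested, because the keratins were chosen with these contrasts known. Over all genes 57.4% passed the test of that difference.

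For the other genes named by rule it was tested in the same limma fit with Benjamini-Hochberg adjustment, and these passed. The list genes besides keratins were named for a large called change in at least 1 line. That choice favours a difference between lines, so nothing is read from their passing. The limma adjusted p was 0.0341 for BFSP1, 0.0315 for EIF4B, 0.0207 for PKP3, 0.0183 for PNN, 0.0151 for KRT81 and at most 0.0099 for the rest. Among keratins the difference between lines was 0.49 for KRT81. KRT81 was below 1 FPKM in every MiaPaCa2 library, with means of 0.598 FPKM in KO and 0.256 FPKM in WT cells. Changes at that level are understated by log2(FPKM + 1), so no difference between the lines is read from KRT81. Among linkers the difference was 2.75 for DSP, 0.49 for PKP3 and -0.39 for PNN. Among chaperones it was 0.66 for HSPB1, -0.68 for HSPA8 and -0.37 for BAG1. Among other filament genes it was 0.56 for VIM, 0.90 for LMNA, -0.40 for LMNB1 and -0.61 for BFSP1. With quantile normalization VIM was lower in the KO cells of both lines. Among transcription factors the difference was 0.91 for JUNB and -0.63 for RUNX1. Among surface and junction genes it was 1.42 for LSR, 1.16 for ITGB4 and -0.93 for CLDN1. It was -1.23 for ASAP2 and 0.16 for EIF4B, the neighbour of KRT18.

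For 5 further genes the value only restates the change in 1 line, since the gene was at or near 0 in the other and could hardly change there. It was 0.85 for GRHL3, 0.82 for TFAP2C and -0.91 for CLDN7, which were at or near 0 in MiaPaCa2, and 1.19 for KRT13 and -0.80 for TP63, which were near 0 in Panc1. No difference between the lines is read from these.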

How the results depend on the processing

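The knockout differences of KRT8, KRT18, KRT19 and KRT80 kept their directions under every alternative run. Values that moved by over 1 SD between replicates came from rescaling or the pseudocount. With the same sum per library, KRT8 was 0.39, KRT18 0.30 and KRT80 0.17 in Panc1. With the median ratio, KRT8 was 0.58, KRT18 0.50, KRT80 0.36 and KRT19 -0.97 in Panc1. With quantile normalization, KRT8 was 0.35, KRT18 0.23, KRT80 0.32 and KRT19 -1.47 in Panc1, and KRT8 -0.46, KRT80 -0.38 and KRT7 0.09 in MiaPaCa2. With a pseudocount of 0.1, KRT7 was 0.28 in MiaPaCa2. With a library left out, KRT7 ran from -0.03 to 0.21 in Panc1 and KRT19 from -1.15 to -1.02 there. The filter of 5 FPKM leaves KRT7 untested and lowered the genes of the 6 lists called higher in MiaPaCa2 to 6, against 11, since fewer genes are tested.

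Among related genes, VIM turned to -0.17 in Panc1 with quantile normalization and was still called. Other signs turned only for values near 0 that were not called: KRT10 at -0.04 and BFSP1 at -0.01 in Panc1 with the same sum, HSPA8 at -0.05 in MiaPaCa2 and CLDN1 at 0.00 in Panc1 with quantile normalization, and HSPA8 at -0.00 and KRT7-AS at 0.00 with the median ratio. With a library left out, KRT10 reached -0.01 and KRT13 0.02, BFSP1 ran from -0.02 to 0.11, TP63 from -0.14 to 0.04 and KRT7-AS from -0.15 to 0.04 in Panc1, and in MiaPaCa2 DSP ran from -0.13 to 0.06 and HSPA8 reached -0.03. KRT10 was called at 0.18 with quantile normalization, and CLDN1 at -0.25 without Panc1 KO replicate 1. The causes were not tested.

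Deviations of same-numbered KO and WT libraries correlated at 0.017, 0.034 and 0.078 in Panc1 and -0.127, -0.165 and -0.002 in MiaPaCa2. Those of differently numbered libraries ran from -0.097 to 0.058 in Panc1 and from -0.192 to 0.254 in MiaPaCa2. No strong effect shared by number was seen, but 3 libraries per group cannot tell whether libraries were prepared in pairs. The main fit used no pairing. With the replicate block, 2900 genes were called higher and 5544 lower in Panc1, against 2910 and 5556 without it, and the differences of KRT19 stayed at -1.09 and -1.57. Depth is unknown, and KRT7 in MiaPaCa2 and KRT13 in Panc1 are too low for a difference to be read.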
